A study of Mus musculus with 2 samples.

Results

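Group 2 innate lymphoid cells (ILC2) made up 181 of the 18753 eYFP+ cells of perigonadal white adipose tissue (gWAT) that passed the depth filters, 90 of 10216 in the low-fat diet (LFD) library and 91 of 8537 in the high-fat diet (HFD) library. They were chosen by measured values. A cell was taken when it held a UMI (a unique molecular identifier, the tag that counts 1 captured mRNA molecule) of at least 3 of the 9 marker genes Il5, Il13, Il1rl1, Areg, Calca, Il17rb, Rnf128, Gata3 and Il7r, a UMI of Ptprc or Il7r, no UMI of Cd3d, Cd3e, Cd3g, Cd79a, Ms4a1, C1qa or Cpa3, and UMIs of at most 1 of Pdgfra, Wt1 and Krt19. Both libraries came from male Cyp1a1Cre x R26LSL-eYFP mice. In these, Cre driven by the Cyp1a1 promoter marks a cell for good once the gene has been active, so the sort kept live cells with present or past activity of Cyp1a1, a target of the aryl hydrocarbon receptor (AHR). LFD mice had eaten 10% fat and HFD mice 60% fat for 12 weeks, and mice of both diets had received FICZ, a ligand of AHR, as a dose of 10 mg/kg given 5 days ahead of collection of the fat. Each library pooled the cells of the mice of 1 diet and tied no cell to a mouse. There was thus no replicate and no p-value could be given, and diet and library cannot be told apart. Mice of the study entered a diet at an age of 6 weeks where possible and of 10 weeks at most, and no age is printed here for these mice alone. All intervals below are exact 95% intervals and cover counting error only.

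ILC2 are lymphocytes without a rearranged antigen receptor, and they respond instead to alarmins such as interleukin 33, which stressed or damaged epithelial and stromal cells release. They depend on the transcription factors GATA3 and RORα. Their products include interleukin 5, which sustains eosinophils, interleukin 13, which promotes alternative activation of macrophages, and amphiregulin, a ligand of the epidermal growth factor receptor, and in adipose tissue ILC2 are known for maintaining eosinophils and such macrophages.

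Genes of the main ILC2 cytokines lie close together on chromosome 11. In GENCODE M21 (assembly GRCm38), Il13 spans 53631324 to 53634702 on the minus strand, Il5 spans 53720794 to 53725106 on the plus strand, and Csf2, the gene of granulocyte-macrophage colony-stimulating factor, spans 54247271 to 54249667 on the minus strand. Il5 and Il13 had lower summed levels, and Csf2 a higher one, in HFD than in LFD ILC2. Nr4a1, an immediate early gene that was also higher in HFD ILC2, lies on chromosome 15 from 101254269 to 101274795 on the plus strand. For these genes the 250 bases before the RefSeq transcription start in GRCm38.p6 are printed 5′ to 3′ on the gene's own strand. They lie at chr11:53720544-53720793 for Il5 (+), chr11:53634703-53634952 for Il13 (-), chr11:54249900-54250149 for Csf2 (-) and chr15:101266596-101266845 for Nr4a1 (+), the last of which falls inside the longer GENCODE gene. The windows of Il5 and Il13 end next to the GENCODE gene. That of Csf2 ends at 54249900, upstream of the GENCODE start at 54249667, so the bases between these positions were not searched.
Il5: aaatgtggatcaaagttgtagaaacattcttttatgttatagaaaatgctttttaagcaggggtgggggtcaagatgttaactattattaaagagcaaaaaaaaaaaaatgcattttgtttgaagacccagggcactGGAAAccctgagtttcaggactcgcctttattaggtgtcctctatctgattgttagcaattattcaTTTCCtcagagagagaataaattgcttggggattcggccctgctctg
Il13: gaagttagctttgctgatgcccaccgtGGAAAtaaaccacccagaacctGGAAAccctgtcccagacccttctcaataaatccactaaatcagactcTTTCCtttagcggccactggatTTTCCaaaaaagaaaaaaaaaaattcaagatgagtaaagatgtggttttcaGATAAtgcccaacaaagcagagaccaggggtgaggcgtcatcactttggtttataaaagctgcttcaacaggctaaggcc
Csf2: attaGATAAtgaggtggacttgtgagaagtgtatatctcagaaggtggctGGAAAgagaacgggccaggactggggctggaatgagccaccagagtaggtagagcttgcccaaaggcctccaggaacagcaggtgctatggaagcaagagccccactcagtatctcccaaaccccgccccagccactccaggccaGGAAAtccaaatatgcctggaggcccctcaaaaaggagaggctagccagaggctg
Nr4a1: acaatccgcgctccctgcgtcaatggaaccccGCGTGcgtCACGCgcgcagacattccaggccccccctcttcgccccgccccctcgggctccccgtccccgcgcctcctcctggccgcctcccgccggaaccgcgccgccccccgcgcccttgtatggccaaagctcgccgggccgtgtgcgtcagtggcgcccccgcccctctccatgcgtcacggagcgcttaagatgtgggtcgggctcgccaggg
Capitals mark the matches of 4 motifs searched on both strands, GATAA (a form of the GATA core), TGANTCA (the AP-1 site), GGAAA (the NFAT core) and GCGTG (the AHR core). GATAA stood 80 bases before the RefSeq start of Il13 and 246 bases before that of Csf2, and 22.6% of all 32851 promoters of this length held it. Other forms of the GATA core were not searched, so the windows without GATAA may still hold a GATA site. The NFAT core, held by 55.6% of promoters, was found 4 times for Il13, 2 times for Il5 and 2 times for Csf2. The AHR core, held by 28.2% of promoters, occurred 2 times for Nr4a1 and in none of the cytokine windows. No window held the AP-1 site, which 6.75% of promoters did. A match describes letters in a window and was not measured as a bound site.

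The rule took cells that stood apart by the number of markers, and since these markers chose the cells, the numbers are a description. Members held 1040 to 16539 UMIs in LFD and 1040 to 11758 in HFD, with medians of 1648 and 1485 genes. Among cells that met the other conditions of the rule, most held none or 1 of the 9 markers, and a separate set held many. In LFD 17 cells had exactly 2 markers and 8 had exactly 3, whereas 25 had 6, and in HFD the corresponding numbers were 20, 7 and 21. Members carried a median of 6 markers in both libraries, and 143 of 181 had 5 or more. Cells just inside the threshold were shallow, with median totals of 2385 and 1892 UMIs in LFD and HFD compared with 4432 and 3848 in all members, and none of them held Il5 or Il13. Cells just outside it, with 2 markers, held no UMI of Il5 or Klrg1 in either library. Ncr1, a receptor of natural killer cells and other innate lymphocytes, was found in 3 of them in LFD and 3 in HFD, although in no member.

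**Figure D1:**
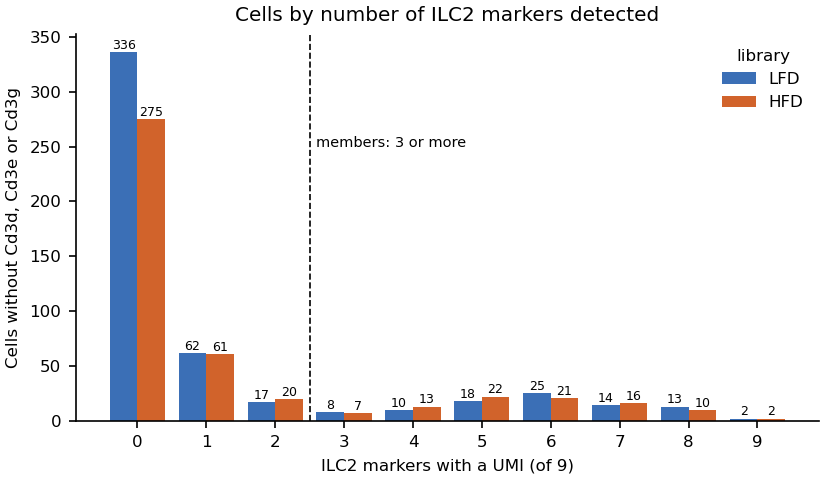
Number of cells (y axis) by how many of the 9 ILC2 markers had a UMI (x axis), among cells without Cd3d, Cd3e or Cd3g that met every other condition of the rule, in LFD (blue) and HFD (orange). Counts drop to 8 and 7 cells at 3 markers and reach 25 and 21 cells at 6 markers.

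The label was checked on genes of ILC2 that the rule did not use. Rora, which encodes RORα, was found in 94.4% and 96.7% of LFD and HFD members, Klrg1, an inhibitory receptor of mature ILC2, in 76.7% and 67.0%, and Il2ra, the α chain of the interleukin 2 receptor, in 73.3% and 78.0%. Of 20 such genes, 19 had a UMI, and the missing one was Zbtb16, which encodes PLZF, a factor of innate lymphoid precursors. To compare cells of unlike depth, each cell was thinned to 2000 UMIs, which left out 3 LFD and 6 HFD members. At that depth Rora was found in 74.7% (64.25 to 83.4) of LFD and 89.4% (80.85 to 95.04) of HFD ILC2, against 6.46% and 8.95% of stromal cells with a Pdgfra UMI and none of Ptprc or Il7r. Klrg1 was found in 49.4% and 52.9% of thinned ILC2, in 0.0169% of LFD stromal cells and in 0 of 3632 HFD stromal cells. These stromal cells were the deeper ones, with median totals of 12600 and 16920 UMIs before thinning.

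Against T cells, these genes set ILC2 apart only in part. Here T cells were the 64 LFD and 47 HFD cells with at least 2 of Cd3d, Cd3e and Cd3g under the same exclusions. Cells with ILC2 markers were not removed from them, so they overlap the cells with 3 or more markers and a Cd3 UMI described below. Thinning left out 24 LFD and 18 HFD T cells and kept 40 and 29. Thinned T cells held Rora in 47.5% (31.5 to 63.9) of cases in LFD and 72.4% (52.8 to 87.3) in HFD, the latter an interval that overlaps that of ILC2. Klrg1 was found in 25% and 17.2% of them. For Il2ra the shares were 43.7% and 57.65% in thinned ILC2 and 32.5% and 13.8% in thinned T cells, with intervals that overlap in LFD. Icos, a costimulatory receptor gene, was more frequent in T cells, with 57.5% and 55.2% against 29.9% and 25.9% in ILC2. Of the 14 such genes with at least 50 UMIs in ILC2, 9 had a higher CPM (UMIs per 1000000 UMIs summed over the cells) in ILC2 than in T cells of both libraries. In 2, Icos and Thy1, it was lower in both, and in 3, Bcl11b, Ets1 and Tnfrsf18, it was lower in LFD and higher in HFD.

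Some T cell genes were found in members and others were rare or at 0. Of 11 T cell markers, 9 had a UMI in LFD and 6 in HFD, and together they summed to 822 and 1045 CPM in ILC2 against 3115 and 2625 CPM in T cells. The 5 regulatory T cell markers, which include Il2ra of the ILC2 list, summed to 442 and 593 CPM against 2008 and 1701 CPM in T cells. Trac, the constant segment of the T cell receptor α chain, had 3 and 0 UMIs in LFD and HFD members, Foxp3, the factor of regulatory T cells, 3 and 0, and the co-receptor gene Cd4 3 and 1, while Cd8a and Cd8b1 had none. The β chain segments were frequent, with Trbc1 in 54.4% and 45.05% of members and Trbc2 in 80% and 70.3%, the latter at 455 and 499.8 CPM, against 889.9 and 807 CPM in T cells. The γ chain segment Tcrg-C4 was found in 27 and 26 members, with 46 and 48 UMIs against 1 and 0 in T cells.

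Of 9 natural killer and ILC1 markers, Ncr1, Klrb1c, Eomes, Tbx21, Prf1 and Klra8 had no UMI in either library. Their list summed to 157.5 CPM (125.3 to 195.5) in LFD compared with 131 CPM (96.9 to 173) in HFD, and in HFD all of it was Gzma, a granzyme gene found in 7 and 3 members. The 9 mast cell and basophil markers were at 0 except Hdc, the histamine-forming enzyme, which had 49 UMIs in 14 LFD cells and 88 UMIs in 16 HFD cells. ILC3 markers were near 0 apart from 26 UMIs of Il22 in a single LFD cell.

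**Figure D2:**
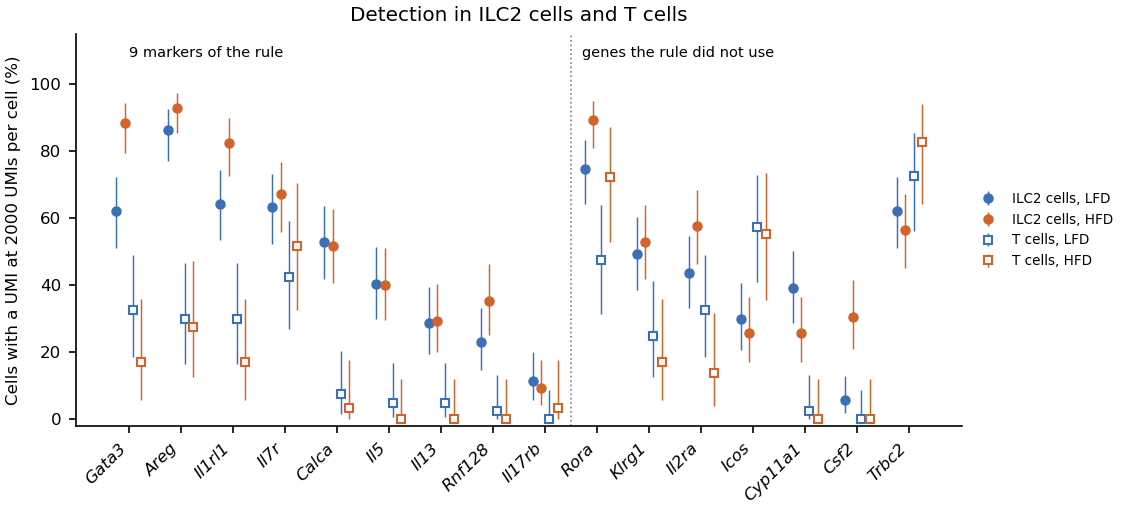
Share of cells with a UMI of each gene (y axis, percent, exact 95% interval) after thinning every cell to 2000 UMIs, in ILC2 (filled circles) and T cells (open squares) of the LFD (blue) and HFD (orange) libraries, with genes of the rule left of the dotted line. Csf2 was found in 5.75% and 30.6% of LFD and HFD ILC2 and in no thinned T cell, and Trbc2 in 62.1% and 56.5% of ILC2.

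A further 39 LFD and 28 HFD cells held 3 or more markers but were kept out by a Cd3 UMI. Of those with a Trac UMI, 11 in LFD and 9 in HFD, Foxp3 was found in 9 and 5 and Il5 in none. Of those without one, 28 and 19 cells, Il5 was found in 12 and 7, Klrg1 in 26 and 9, and Foxp3 in 7 and 4. The exclusion of any Cd3 UMI therefore also left out cells with leading genes of ILC2, and the values here are those of the cells the rule took.

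ILC2 were a small share of the sorted cells on either diet, and with 1 library per diet a difference in their abundance could not be tested. They formed 0.881% (0.709 to 1.08) of the LFD library and 1.07% (0.859 to 1.31) of the HFD library, and the HFD share divided by the LFD share was 1.21 (0.894 to 1.64). Among cells with a UMI of Ptprc, the gene of the leukocyte antigen CD45, the order was the opposite. There 73 of 2458 LFD cells (2.97%, 2.335 to 3.72) and 75 of 3157 HFD cells (2.38%, 1.87 to 2.97) were ILC2, a ratio of 0.7999 (0.572 to 1.12). Both intervals include 1. The ratio moved both ways with the choice of cells, to 2.27 (1.01 to 5.47) for the 10 LFD and 19 HFD members without a T cell receptor UMI and to 0.5815 (0.216 to 1.504) for the 12 and 9 members among cells with under 5% mitochondrial UMIs. Of 27 cell barcodes present in both libraries, 2 were LFD members and 0 were HFD members.

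Levels of the 9 markers differed between the diets in both directions. These genes chose the cells, so their values are a description. Il5 stood at 843 CPM (interval 766 to 926) in LFD against 543 CPM (interval 470.5 to 623) in HFD ILC2, which gave a ratio of 0.643 (0.542 to 0.7615), and Il13 at 638 CPM (interval 571 to 710.2) against 409 CPM (interval 347 to 479), which gave a ratio of 0.641 (0.526 to 0.779). Both interleukins were carried by some of the cells only, Il5 by 57 and 46 LFD and HFD cells and Il13 by 32 and 28, and a few cells held much of each. For Il13, 4 cells held 72.0% of the LFD and 47.1% of the HFD UMIs, and the highest LFD cell alone held 127 of 332. Without the highest cell of each library the ratio of Il13 was 0.881 (0.701 to 1.10), and that of Il5 0.717 (0.5965 to 0.860). Thinned to 2000 UMIs, the share of cells with Il5 was 40.2% and 40% (stromal cells, which the choice set apart, gave 0.0338% and 0%) and with Il13 28.7% and 29.4%, so that at equal depth the shares were close.

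Amphiregulin was the most abundant of the 9 markers, and almost every cell carried it. Areg stood at 3108 CPM (interval 2959 to 3264) in LFD against 5375 CPM (interval 5143 to 5615) in HFD ILC2, which gave a ratio of 1.73 (1.62 to 1.85), in 83 and 85 cells. Its per-cell level had a median of 2059 and a maximum of 11584 CPM in LFD and a median of 4287 and a maximum of 17721 CPM in HFD, so the cells of both diets overlapped. Among the 12 LFD and 9 HFD members with under 5% mitochondrial UMIs the ratio of Areg was 0.699, the reverse direction. Calca, which encodes calcitonin and the neuropeptide CGRP, was nearly level at 832 CPM (interval 755 to 914) against 772 CPM (interval 686 to 867).

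The receptors among the markers were higher in HFD, apart from the scarce Il17rb. Il1rl1, which encodes the interleukin 33 receptor ST2, stood at 578 CPM (interval 515 to 647) in LFD against 909 CPM (interval 815 to 1011) in HFD, and Il7r, the α chain of the interleukin 7 receptor, at 432 CPM (interval 378 to 493) against 818 CPM (interval 729 to 915). Il17rb, a receptor chain for interleukin 25, had 28 and 15 UMIs. Gata3 stood at 705 CPM (interval 635 to 781) in LFD against 1264 CPM (interval 1153 to 1383) in HFD, which gave a ratio of 1.79 (1.56 to 2.06), and Rnf128, which encodes the ubiquitin ligase GRAIL, at 129 and 216.5 CPM. Choosing the cells on the other 8 markers in turn gave ratios of 0.643 for Il5, 0.641 for Il13, 1.58 for Il1rl1, 1.75 for Areg, 0.944 for Calca, 0.7005 for Il17rb, 1.77 for Rnf128, 1.80 for Gata3 and 1.95 for Il7r.

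**Figure D3:**
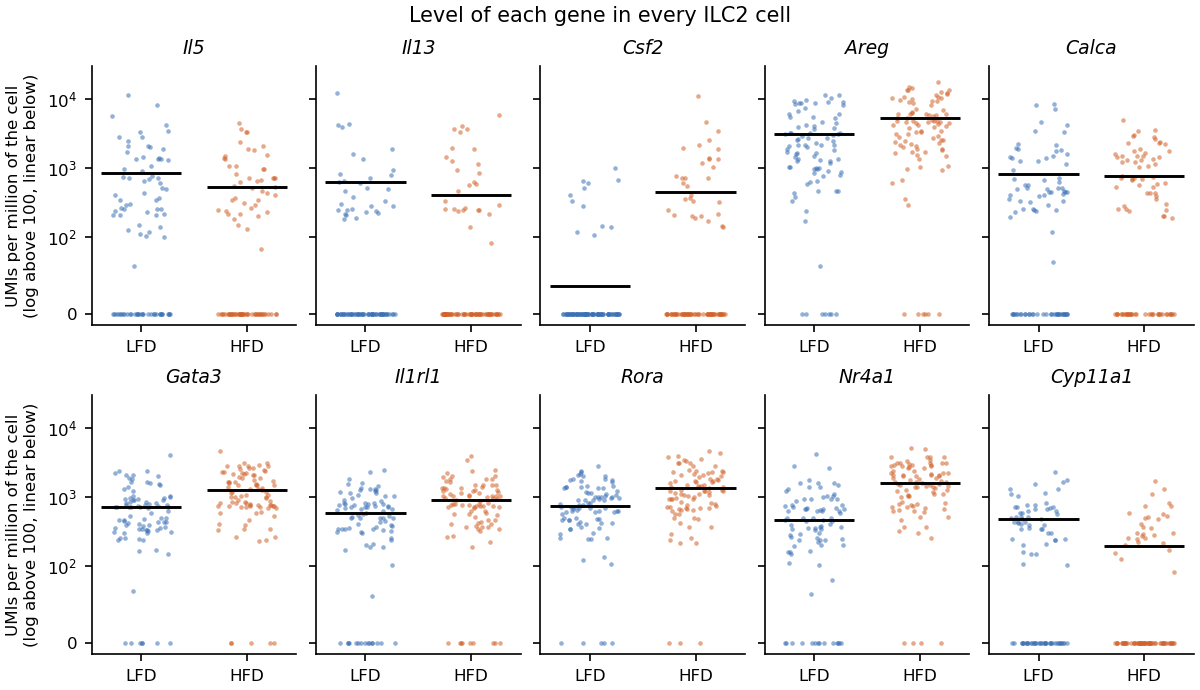
Level of 10 genes in every ILC2 (y axis, UMIs per 1000000 UMIs of the cell, logarithmic above 100 and linear below) in LFD (blue, 90 cells) and HFD (orange, 91 cells), with black lines at the CPM of the summed counts. Il5 and Il13 are carried by some cells at high levels, Csf2 by 12 LFD and 32 HFD cells, and the Nr4a1 and Areg points of HFD lie higher than those of LFD, with overlap.

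The comparison of diets was then extended to all genes. Of 2480 genes with at least 50 UMIs in ILC2 of both libraries together, 148 (5.97%) were at least 2-fold higher and 97 (3.91%) at least 2-fold lower in HFD ILC2, and the median ratio was 0.998. These shares are the background for the gene groups below, which are described by counts and medians without a test. Some groups hold markers that chose the cells, so their counts and medians are in part a description of that choice. Among the genes compared these are Il5, Il13, Areg and Calca (secreted products), Il1rl1 and Il7r (receptors), Gata3 (transcription factors) and Rnf128 (checkpoint genes).

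Among secreted products, Csf2 stood furthest apart between the diets. Of 26 genes, 9 could be compared, 3 were at least 2-fold higher (Csf2, Cxcl2 and Ccl1), none was 2-fold lower, and the median ratio was 1.635. Of the 9, Il5, Il13, Areg and Calca were markers of the rule. The counts were 2 higher and 1 lower (Il5, a marker of the rule) among cells without a UMI of the proliferation genes Mki67 or Top2a, and 2 and 0 by the mean of per-cell CPM. Csf2 had 19 UMIs in 12 LFD cells and 170 UMIs in 32 HFD cells, or 36.5 CPM (interval 22.0 to 57) against 454 CPM (interval 389 to 528), which gave a ratio of 12.45 (7.73 to 21.2). A single HFD cell held 48 of these UMIs, and without the highest cell of each library the ratio was 9.82. Thinned to 2000 UMIs, 5.75% (1.89 to 12.9) of LFD and 30.6% (21.05 to 41.5) of HFD ILC2 held Csf2, and T cells had no Csf2 UMI in either library. Il5 was found in 9 of the 12 LFD and 22 of the 32 HFD cells with Csf2, against 57 of 90 LFD and 46 of 91 HFD members in all. These counts were not taken at equal depth.

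The other products ranged from abundant to undetected. The neutrophil chemokine gene Cxcl2 stood at 392 CPM (interval 340 to 449.5) in LFD against 1133 CPM (interval 1028 to 1246) in HFD ILC2, although 51.1% and 53.85% of cells carried it and its ratio was 0.371 in members with under 5% mitochondrial UMIs, and Ccl1, a ligand of the receptor CCR8, had only 23 and 34 UMIs in 6 and 9 cells. Ltb, which encodes lymphotoxin β, stood at 219 and 358 CPM and Tgfb1 at 252 and 302 CPM. Il4, the type 2 cytokine gene beside Il13, had 4 and 6 UMIs, and Il9, Il2 and Il3 had none in either library. The interval of a count of 0 reaches 7.09 CPM in LFD and 9.86 CPM in HFD.

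Receptors had a median ratio above 1. Of 31, 17 could be compared, among them Il1rl1 and Il7r, markers of the rule, with 2 at least 2-fold higher, none lower and a median ratio of 1.43. Both calls were lost in the alternatives, with 0 higher and 0 lower without the proliferating cells, and 0 and 0 by the per-cell mean. The higher ones were Cysltr1, which binds cysteinyl leukotrienes, at 98.0 and 206 CPM in LFD and HFD, and Ptgir, the prostacyclin receptor, at 59.55 and 123 CPM. Il2ra stood at 361 CPM (interval 311 to 417) against 497 CPM (interval 428 to 574), and Ramp1, a subunit of the CGRP receptor, at 92.2 and 166 CPM. Ramp3, of the same family, was level at 309 and 310 CPM, and Calcrl, the chain that both partner, had 4 and 2 UMIs. The receptor for neuromedin U, Nmur1, was near the limit of detection with 6 and 8 UMIs, and Ptgdr2, the prostaglandin D2 receptor often used to mark ILC2, had no UMI.

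Lymphocyte transcription factors had a median ratio of 1.77 over 13 genes, among them Gata3, a marker of the rule, with 3 at least 2-fold higher and 1 lower. The counts were 1 higher and 0 lower without the proliferating cells, and 2 and 1 by the per-cell mean. The higher ones were Ets1, a factor of lymphocyte development, at 282 CPM (interval 239 to 332) in LFD against 623 CPM (interval 545 to 708) in HFD, the NF-κB subunit gene Rel, at 184 and 417 CPM, and Bcl11b, required for ILC2 identity, at 123 CPM (interval 94.7 to 157) against 249 CPM (interval 201 to 304.5). Rora stood at 751 CPM (interval 678.5 to 829) against 1326 CPM (interval 1212 to 1448), and the NF-κB subunit gene Nfkb1 at 1128 and 2226 CPM. The lower one was Batf, of the AP-1 family, with 46 and 16 UMIs. Id2, which restrains E proteins in innate lymphoid cells, differed little, with 467 and 561 CPM.

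ILC2 identity genes outside the rule had a median ratio of 1.403 over 14 genes, with Thy1, Bcl11b and Ets1 at least 2-fold higher and none 2-fold lower. The group had 1 higher and 1 lower without the proliferating cells, and 1 and 0 by the per-cell mean. The ratio of Bcl11b was then 1.55 and 1.55 and that of Ets1 1.71 and 1.86, under 2-fold in both. Cxcr6, a chemokine receptor of tissue-resident lymphocytes, stood at 463 CPM (interval 406 to 525) in LFD against 794 CPM (interval 706 to 889) in HFD, whereas Thy1, a surface marker of ILC2, had only 19 and 37 UMIs. Ly6a, which encodes the surface antigen Sca-1, was lower in HFD, with 2044 CPM (interval 1923 to 2171) against 1115 CPM (interval 1010 to 1227), which gave a ratio of 0.545 (0.486 to 0.611), although 86 and 85 cells carried it, and a ratio of 0.450 without the proliferating cells. T cells had 766.5 and 345 CPM of Ly6a and all other cells 308 and 512 CPM.

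**Figure D4:**
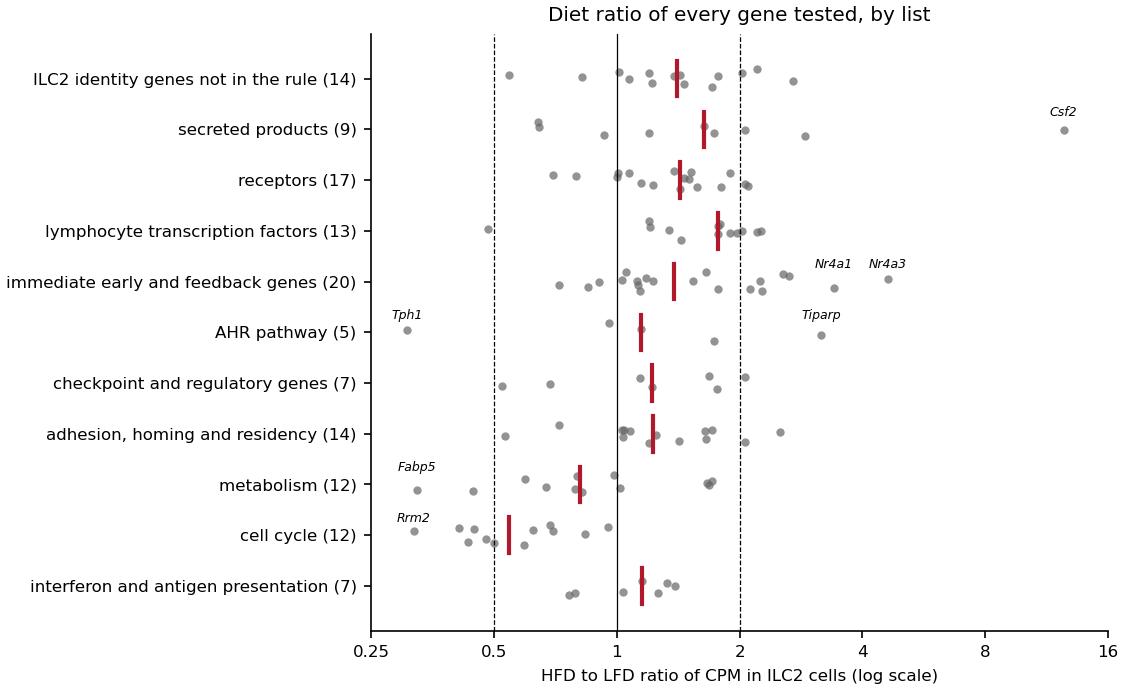
HFD to LFD ratio of CPM in ILC2 (x axis, logarithmic) for every gene with at least 50 UMIs, by gene group with the number of genes in brackets (y axis), where red bars mark group medians and dashed lines 2-fold. Most cell cycle genes lie left of 1 (median 0.545) and most transcription factors right of it (median 1.77).

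Several immediate early and feedback genes, which signalling switches on within minutes to hours, were higher in HFD ILC2. Of 20 compared, 7 were at least 2-fold higher and none lower, with a median ratio of 1.38, and there were 4 higher and 0 lower without the proliferating cells, and 4 and 0 by the per-cell mean. They were Nr4a1, Nr4a2 and Nr4a3, inducible orphan nuclear receptors, Tnfaip3 and Nfkbid, which act on NF-κB, Zfp36, which destabilises cytokine mRNAs, and Btg2, an antiproliferative gene. Nr4a1 stood at 465 CPM (interval 408 to 527) in LFD against 1580 CPM (interval 1455 to 1712) in HFD, which gave a ratio of 3.398 (2.92 to 3.96), and at equal depth was found in 60.9% and 90.6% of cells. Nr4a3 stood at 107.6 CPM (interval 81.3 to 139.7) against 497 CPM (interval 428 to 574), and at equal depth was found in 19.5% and 57.65%. In T cells Nr4a1 stood at 131 and 198 CPM, and in all other cells at 186.5 and 218 CPM. Not all genes of this group were higher, since Fos (290.1 and 299 CPM), Dusp1 (403 and 454 CPM) and Jun (334 and 302 CPM) were nearly level.

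The 12 highest ratios by the naming rule ran from 4.62 to 3.27, in the order Nr4a3, Malt1, Kdm2b, Arl5b, Tob2, Tmem64, Kctd12, Hes1, Macf1, Rcsd1, Nr4a1 and Neurl3. Malt1, the paracaspase that links antigen receptors to NF-κB, had 22 UMIs in 14 LFD cells and 67 UMIs in 31 HFD cells, which gave a ratio of 4.24 (2.58 to 7.205). Tob2, an antiproliferative gene of the family of Btg2, stood at 104 and 398 CPM, and Hes1, a repressor induced by Notch, at 65.3 and 235 CPM in 21 and 33 cells. Kdm2b, a histone demethylase gene, had 15 and 45 UMIs. All 12 were also at least 2-fold higher among cells without a UMI of Mki67 or Top2a, with ratios from 2.235 to 4.52.

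Cells with a UMI of Mki67 or Top2a, genes of proliferating cells, were more frequent among LFD ILC2. They were 37 of 90 LFD cells (41.1%, 30.8 to 52.0) and 19 of 91 HFD cells (20.9%, 13.1 to 30.7), a ratio of 0.508 (0.276 to 0.906). They were also deeper, with median totals of 8528 and 4877 UMIs against 3556 and 3700 in the rest. At 2000 UMIs per cell the shares were 31.0% (21.55 to 41.9) and 16.5% (9.31 to 26.1), intervals that overlap. T cells gave 23 of 64 and 10 of 47 before thinning.

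Of 12 cell cycle genes, 6 were at least 2-fold lower in HFD ILC2 and none higher, with a median ratio of 0.545, and there were 0 higher and 4 lower without the proliferating cells, and 0 and 5 by the per-cell mean. Mki67 and Top2a are among the 12. They defined the proliferating cells, so they had no UMI and no ratio without them. Stmn1, a tubulin regulator of dividing cells, stood at 647 and 310 CPM in 43 and 15 cells, Rrm2, a subunit of ribonucleotide reductase, at 134.5 and 42.8 CPM, and the helicase subunit gene Mcm3 at 117 and 48.1 CPM. The 12 lowest ratios by the naming rule ran from 0.2715 to 0.371, in the order Ifitm2, Mcm7, Hat1, Fabp5, AA467197, Erh, Tpi1, Ddx39, Phgdh, Rpa1, Cenpx and Trappc6a. Ifitm2, an interferon-induced membrane protein gene, had 82 and 16 UMIs, with a reversed ratio of 1.17 in the 10 LFD and 19 HFD members without a T cell receptor UMI. There were, for the helicase subunit gene Mcm7, 46 and 10 UMIs, and for the histone acetyltransferase gene Hat1 55 and 12. Phgdh, the first enzyme of serine synthesis, had 46 and 12 UMIs, with a reversed ratio of 1.24 in members with under 5% mitochondrial UMIs. Among cells without a Mki67 or Top2a UMI, Mcm7 was no longer below 1 (ratio 3.99, interval 0.447 to 189) and Fabp5, a fatty acid binding protein gene, was level (ratio 1.03, interval 0.524 to 2.07). AA467197 stood at 0.366 (0.210 to 0.618) in these cells and the glycolytic Tpi1 at 0.414 (0.201 to 0.8175).

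**Figure D5:**
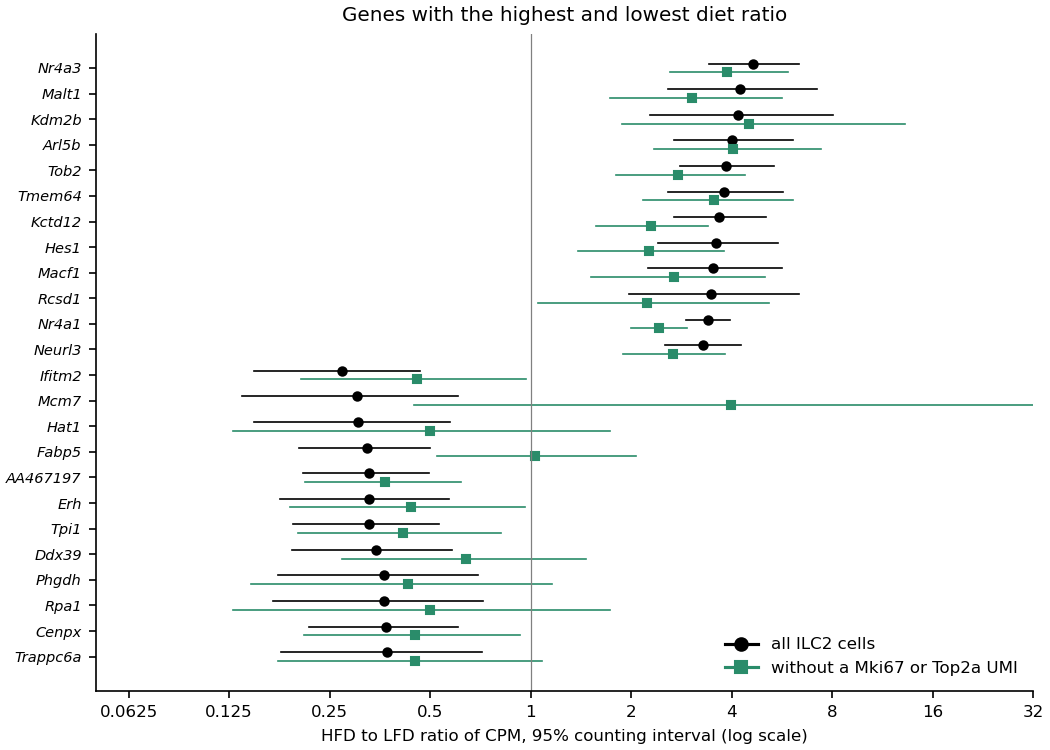
HFD to LFD ratio of CPM (x axis, logarithmic, with 95% counting intervals) of the 12 highest and 12 lowest genes by the naming rule (y axis), in all ILC2 (black circles) and in ILC2 without a Mki67 or Top2a UMI (green squares), where the upper bound for Mcm7 runs past the axis to 189. The higher genes lie right of 1 in both sets of cells, whereas Mcm7 and Fabp5 do not lie left of it in the second.

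Leaving out the cells with Mki67 or Top2a moved other values too. In the remaining 53 LFD and 72 HFD cells the median ratio of all genes was 1.03, with 152 of the same 2480 (6.13%) at least 2-fold higher and 111 (4.48%) lower. The median was 1.12 for receptors, 1.17 for ILC2 identity genes and 1.36 for secreted products. It was 1.49 for immediate early genes, which had 1.38 in all cells and here stood above the transcription factors with 1.48. For metabolic genes it was 0.959 and for cell cycle genes, without Mki67 and Top2a, 0.6615, and for the other 4 groups it ran from 1.06 (interferon and antigen presentation) to 1.16 (adhesion). The ratio of Il7r was 1.33 in these cells against 1.89 in all, that of Rora 1.48 against 1.765, and that of Areg 1.36 against 1.73. Gata3 was at 1.92 and Csf2 at 9.03, and the ratios of Il5 and Il13 were 0.460 and 0.5235. The value of Il13 rested on 1 LFD cell, the one with 127 UMIs. Without the highest cell of each library the ratio in these cells turned to 1.38 (Il13) and stood at 0.562 (Il5) and 7.19 (Csf2).

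Metabolic genes had a median ratio below 1. Of 12 compared, none was at least 2-fold higher and 2 were lower, Fabp5 (215 and 69.5 CPM) and the glycolytic Pgk1 (463 and 206 CPM), with a median ratio of 0.810, and there were 1 higher and 1 lower without the proliferating cells, and 1 and 2 by the per-cell mean. Ldha, whose enzyme makes lactate, stood at 901 CPM (interval 821 to 986) in LFD against 604 CPM (interval 528 to 688) in HFD, and the glycolytic Pkm at 657 and 390.2 CPM. Odc1, the first enzyme of polyamine synthesis, was among the genes that were higher, with 492 and 842 CPM.

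Genes that set ILC2 apart from T cells were described next. Since the rule asked for ILC2 markers and left out any cell with a Cd3 UMI, these differences describe the choice of cells as well. By the lower ratio of both libraries the leading 15 included Cyp11a1, Hs3st1, Hilpda, Irs2, Ccdc184, Lmo4, Cxcl3, Hlf, Slc7a8, Calca, Pxdc1, Hdc, Lilr4b and Tcrg-C4, of which only Calca was in the rule. Cyp11a1, the enzyme that starts steroid synthesis from cholesterol, stood at 482 CPM (interval 424 to 546) in LFD against 195 CPM (interval 153 to 245) in HFD, in 53 and 30 cells, a diet ratio of 0.405 (0.307 to 0.527). T cells had 6 and 0 UMIs of it. With the 0 set to 3 counts, HFD ILC2 held 12.8-fold more than HFD T cells. Of cells with Il5, 40 of 57 in LFD and 23 of 46 in HFD carried Cyp11a1, against 53 of 90 and 30 of 91 of all members, not at equal depth.

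Others of these genes were higher in HFD ILC2. Hilpda, a lipid droplet protein gene, stood at 984 CPM (interval 900.2 to 1073) in LFD against 2272 CPM (interval 2122 to 2430) in HFD ILC2, against 82.3 and 162.5 CPM in T cells. Irs2, an adaptor of the insulin and interleukin 4 receptors, stood at 173 and 457 CPM, against 14.96 and 30.5 CPM, with a reversed ratio of 0.8665 in members with under 5% mitochondrial UMIs, and the LIM-domain gene Lmo4 at 1199 and 2029 CPM, against 108.4 and 66 CPM. The transcription factor gene Hlf stood at 221 and 302 CPM in ILC2 and 1.55 and 1.36 CPM in all cells that were not ILC2, and its diet ratio was 1.37 in all members and 0.5595, the reverse direction, in members without a T cell receptor UMI.

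The AHR pathway was sparsely measured in ILC2, although the cells had been sorted by its reporter. Cyp1a1 had 7 UMIs in 5 LFD cells and 6 UMIs in 5 HFD cells, and Ahr 10 and 8 UMIs in 9 and 7 cells. All 12 genes of the group had a UMI, 5 could be compared, and their median ratio was 1.15. Tiparp, an AHR target whose product modifies the receptor, stood at 119 CPM (interval 91.3 to 153) in LFD against 377 CPM (interval 317 to 444.5) in HFD, which gave a ratio of 3.16 (2.33 to 4.34), and at 203 and 245 CPM in all cells that were not ILC2. Tph1, which starts serotonin synthesis, was lower in HFD, with 59 UMIs in 14 LFD cells and 13 UMIs in 6 HFD cells, and 4 cells held 67.8% and 84.6% of them. Ahrr, the gene of the AHR repressor, had 11 and 5 UMIs.

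In the last 3 groups few genes passed 2-fold. Checkpoint genes (7 compared) had 1 gene at least 2-fold higher and a median ratio of 1.22, adhesion and homing genes (14 compared) had 2 and a median of 1.22, and interferon and antigen presentation genes (7 compared) had none and a median of 1.15. Checkpoint genes had 0 higher and 0 lower without the proliferating cells, and 0 and 1 by the per-cell mean, and adhesion genes had 1 higher and 0 lower without the proliferating cells, and 0 and 0 by the per-cell mean. Cd69, which retains lymphocytes in tissue, stood at 225 and 462 CPM in LFD and HFD, and Ccr2, a receptor for monocyte chemokines, at 98.0 and 246 CPM, with a reversed ratio of 0.286 in members with under 5% mitochondrial UMIs. Pdcd1, which encodes PD-1, had 85 UMIs in 43 LFD cells and 42 UMIs in 27 HFD cells, which gave a ratio of 0.6875 (0.463 to 1.01). Lgals1, which encodes galectin 1, stood at 1447 and 769.8 CPM.

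Genes of other cell types differed between the libraries in these cells too. The immunoglobulin genes Igkc and Ighm stood at 263 and 99.9 CPM in LFD and 748 and 369 CPM in HFD ILC2, and in all other cells Igkc stood at 11393 and 44372 CPM. Of 6 plasma cell markers 5 had a UMI, with Tnfrsf17 at 0, and the list summed to 382 CPM (331 to 439) in LFD compared with 1195 CPM (1087 to 1311) in HFD. The 5 markers of adipose stem and precursor cells (ASPC) summed to 966 CPM (884 to 1055) and 409 CPM (347 to 479), with Dpt at 0 in LFD. The 5 endothelial markers summed to 42.3 CPM (26.5 to 64.0) and 208.5 CPM (165 to 260.2). Fabp4, a lipid carrier gene of adipocytes and endothelium, had 30 and 219 UMIs, with 42.5% of the latter from 1 HFD cell, and the acute phase gene Saa3 had 557 and 19, with 53.9% of the former from 1 LFD cell. The part of these transcripts in the results above was not tested. Cells with at least 3 of the markers and a Cd3 UMI, which the rule left out, held Il5, a gene of the rule, at 623 (LFD) and 216 CPM (HFD), and Csf2 at 15.1 and 123 CPM. T cells held Il5 at 157 CPM in LFD, from 2 cells, and had no UMI of it in HFD.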

How the data were processed

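Single-cell 3′ libraries of sorted live eYFP+ cells, 1 per diet, were analysed. The authors made the deposited UMI counts per gene and barcode with Cell Ranger 4.0.0 on mm10, without normalisation. The files held 11281 LFD and 9631 HFD barcodes with 114311020 and 119498750 UMIs. Cells with 500 to 40000 UMIs, at least 100 genes and under 12.5% mitochondrial UMIs were kept. Members, gene lists and tests were chosen with earlier results of these data known. UMIs were summed over the members of a library and scaled to 1000000 (CPM), with exact Poisson intervals, Clopper-Pearson intervals for shares and conditional binomial intervals for ratios, in Python 3.11.15 (numpy 2.4.6, scipy 1.17.1, pandas 2.3.3). Only the share and ratio intervals were tried on simulated data. Those counts were independent, without the gathering of UMIs in a few cells seen here. Named genes had at least 50 UMIs, a ratio interval on one side of 1, and no cell with over 25% of the UMIs, leaving out immunoglobulin, mitochondrial, ribosomal protein, predicted and Y-linked genes. They were the 12 highest and the 12 lowest ratios, beside the 9 markers, examples from the lists, and the 15 leading genes over T cells. Saa3 and Fabp4 were named after their values were seen. A few genes that the rule names are not reported here. Doublets were removed only as an alternative, by Scrublet in scanpy 1.11.5, which took 3 LFD and 4 HFD members. Leaving out cells with Mki67 or Top2a, alone or with the highest cell, the Ptprc denominator and leaving out shared barcodes were alternatives chosen after seeing the data.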

Additional observations from a re-analysis of the deposited data

Results flagged for a closer look

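Of 156 named or listed genes that could be compared, 38 had an interval of the HFD to LFD ratio that left out 1 in both ILC2 and T cells, and in 7 of these it lay on opposite sides of 1 in ILC2 and in T cells of the same libraries, and the difference between the cell types was not tested. Over all 2342 genes it was 25 of 187, and since the named genes were chosen in part by their ratio, nothing is read from the difference. Higher in HFD ILC2 and lower in HFD T cells were Il2ra 1.38 (1.12 to 1.695) and 0.470 (0.259 to 0.817), Areg 1.73 (1.62 to 1.85) and 0.6655 (0.498 to 0.883) and Egr1 1.65 (1.15 to 2.375) and 0.463 (0.239 to 0.848), each pair given as ILC2 and then T cells. T cells with ILC2 markers were kept. Areg was found in 22 of 64 LFD and 12 of 47 HFD T cells, and Il1rl1 in 22 and 9. The part of such cells in the T cell ratios was not tested. Hs3st1 stood at 1.81 (1.49 to 2.201) in ILC2, while T cells had 8 and 0 UMIs, which allows a ratio of up to 0.795. Lower in HFD ILC2 and higher in HFD T cells were the collagen and matrix genes Dcn 0.464 (0.326 to 0.649) and 1.475 (1.08 to 2.02), Col1a1 0.319 (0.204 to 0.485) and 2.03 (1.52 to 2.72) and Col3a1 0.421 (0.319 to 0.550) and 1.36 (1.15 to 1.62), which were among the ASPC markers.

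Barcodes that the depth filters left out also met the rest of the rule. They were 4 of 1065 in LFD (0.376%) and 7 of 1094 in HFD (0.640%). A count of 0, set to 3 barcodes, would give 0.282% and 0.274%. All were over the limit of 12.5% mitochondrial UMIs, and their median totals were 2129 and 1423 UMIs.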

How the results depend on the processing

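The share of ILC2 and its ratio stayed close to the values above with at least 2 or at least 4 markers, with at least 1000 UMIs per cell, with doublets removed and without shared barcodes (LFD 0.803 to 1.05%, HFD 0.984 to 1.30%, ratio 1.18 to 1.24). Members without a UMI of Trac, Trbc1 or Trbc2 were 10 LFD (0.0979%) and 19 HFD cells (0.223%), a ratio of 2.27, with 32 of 304 genes at least 2-fold higher and 25 lower. Members with under 5% mitochondrial UMIs were 12 LFD (0.456%) and 9 HFD cells (0.265%), a ratio of 0.5815, with 13 of 229 genes higher and 24 lower. Of cells with a Ptprc UMI the shares were 2.97% and 2.38%, a ratio of 0.7999. A minimum of 20 UMIs gave 424 of 5013 genes higher and 291 lower, a minimum of 100 UMIs 75 of 1233 and 32, and cells without Mki67 or Top2a 65 of 1293 and 28 with the minimum applied anew, or 152 and 111 over the same 2480 genes. At least 2 markers left 60 genes lower. Fewer genes and cells were compared in most of these settings, and otherwise the cause was not tested. For 71 genes, 710 ratios in all settings stayed within the counting interval of the reported value, 138 moved beyond it, and 16 reversed. Under 5% mitochondrial UMIs the reversed ratios were Areg 0.699, Cxcl2 0.371, Ccr2 0.286, Phgdh 1.24, Irs2 0.8665, Ccdc184 0.928, Pxdc1 0.966 and Hdc 0.265. Without a T cell receptor UMI they were Ifitm2 1.17, Ccdc184 0.9325, Hlf 0.5595, Slc7a8 0.848 and Hdc 0.117, and without Mki67 or Top2a they were Mcm7 3.99 and Fabp5 1.03, with Il13 at 1.38 once the highest cell was left out as well. No paired analysis was possible because each diet had 1 library, and no replicate could be left out.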
